A study of Mus musculus with 8 samples.

Results

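The Frizzled genes encode the receptors to which Wnt proteins bind. All 10 mouse members, Fzd1 to Fzd10, were taken by symbol from a table of 21950 genes, and all 10 were present. RNA had been sequenced from 8 libraries in 2 groups. The d6PGCLC group held 4 pools of primordial germ cell-like cells, which are germ cells made in culture, derived from 1 female BVSC-iPSC line and positive for both the Blimp1-Venus and the Stella-ECFP reporter. They were collected at day 8 of the culture, that is, 6 days after differentiation from epiblast-like cells had begun. The E12.5 PGC group held 4 pools of primordial germ cells from gonads of C57BL/6J female fetuses (E12.5 in the labels), sorted for SSEA1 and integrin β3. The pools of each group came from independent experiments. Source, developmental stage, genetic background, reporters and sorting scheme all changed together between the groups and cannot be told apart. A single iPSC line stands for all PGCLCs.

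A Frizzled receptor crosses the membrane several times and binds a Wnt through a cysteine-rich domain outside the cell. With the co-receptors Lrp5 and Lrp6 it recruits Dishevelled and stabilizes β-catenin, which acts with TCF/LEF factors on target genes, whereas without these co-receptors Frizzled proteins can also steer planar cell polarity. The membrane ubiquitin ligases Znrf3 and Rnf43 remove Frizzled proteins from the surface, and R-spondins bound to Lgr receptors inhibit these ligases. Wnt signalling through β-catenin is needed for the specification of primordial germ cells.

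Frizzled proteins hold Dishevelled at a short motif of their tail, just inside the membrane, which starts with lysine and threonine and ends with tryptophan. Its codons are shown for 9 members because they are the shared sequence through which these receptors signal, and those of Fzd8 were not analysed here. Each run of 18 bases, read 5′ to 3′ from the GENCODE M21 transcripts on GRCm38, has the lysine, threonine and tryptophan codons in capitals.
Fzd1: AAGACActgaattccTGG
Fzd2: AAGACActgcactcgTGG
Fzd7: AAGACCctgcagtcaTGG
Fzd5: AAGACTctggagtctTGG
Fzd4: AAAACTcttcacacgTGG
Fzd9: AAGACTtttcagactTGG
Fzd10: AAGACCctgcagtccTGG
Fzd3: AAGACAtgctttgaaTGG
Fzd6: AAGACGtgcacagaaTGG
They lie, in the order of the lines, at chr5:4755706-4755723 (minus), chr11:102606373-102606390 (plus), chr1:59484607-59484624 (plus), chr1:64735011-64735028 (minus), chr7:89408241-89408258 (plus), chr5:135249416-135249433 (minus), chr5:128602796-128602813 (plus), chr14:65212107-65212124 (minus) and chr15:39033949-39033966 (plus), each in coding sequence. Each of these 9 proteins held the motif once. The codons of Fzd7 and Fzd10 were identical at 17 of 18 bases, those of Fzd1 and Fzd2 at 15 and those of Fzd3 and Fzd6 at 14. The lowest identity, 7 of 18 bases, was that of Fzd4 with Fzd3 and with Fzd6. After the motif, 17 residues followed in Fzd1, Fzd2 and Fzd7, whereas the tails of Fzd3 and Fzd6 went on for 159 and 206 residues. The longest exact run shared by any 2 member transcripts was 47 bases (Fzd1 with Fzd2 and with Fzd7), shorter than the sequenced read of 100 bases.

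RefSeq promoter sequence of GRCm38.p6 was at hand for 6 members. The 250 bases before the start of Fzd1 and Fzd7 are shown, as these are the called members with lower counts in d6PGCLCs for which a promoter was given. Both hold the TCF/LEF core CTTTGA or CTTTGT on either strand, which is printed in capitals.
Fzd1: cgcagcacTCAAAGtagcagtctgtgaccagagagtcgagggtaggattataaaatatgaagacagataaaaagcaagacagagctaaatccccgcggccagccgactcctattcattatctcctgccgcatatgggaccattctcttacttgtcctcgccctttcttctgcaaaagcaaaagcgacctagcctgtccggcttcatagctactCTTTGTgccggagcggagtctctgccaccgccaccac
Fzd7: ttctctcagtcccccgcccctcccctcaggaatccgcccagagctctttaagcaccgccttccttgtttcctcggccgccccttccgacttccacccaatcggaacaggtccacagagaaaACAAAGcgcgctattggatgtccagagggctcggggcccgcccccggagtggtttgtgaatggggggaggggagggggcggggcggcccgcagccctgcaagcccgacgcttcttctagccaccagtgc
They lie at chr5:4758217-4758466 (minus) and chr1:59481897-59482146 (plus). The core occurred at 2 positions before Fzd1, at 1 before Fzd7 and at 0 in the windows of Fzd4, Fzd5, Fzd9 and Fzd10, and 27.6% of all 32851 promoters of this length held it. A match of these letters is a description of the window and was not tested as a binding site. G and C made up 51.2% of the Fzd1 window and 65.2% of the Fzd7 window, between 72.8% and 76.4% of the other 4, and 52.4% of the median promoter.

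The libraries held between 7991437 and 12024841 counted reads, so that 3 counts, taken as the limit of detection, corresponded to between 0.249 and 0.383 CPM (counts per 1000000 of the scaled library size). In both groups all 10 germ cell markers were detected, with a summed level of 4319 to 4946 CPM in d6PGCLCs and 4753 to 5297 CPM in PGCs. The sums hide members that lay far apart, as the later germ cell genes Ddx4 and Dazl averaged 35.5 and 37.7 CPM in d6PGCLCs against 760 and 1262 CPM in PGCs, and Prdm1 444 against 192 CPM. Of 9 markers of gonadal supporting cells, 8 never exceeded 3 counts in d6PGCLCs and 2 never did so in PGCs, and their summed level was 0.498 to 1.70 CPM against 3.70 to 8.52 CPM. The 10 interstitial markers summed to 9.45, 13.7, 4.15 and 30.9 CPM in the d6PGCLC libraries and to between 2.31 and 8.10 CPM in PGCs. The interstitial marker Tcf21 and the supporting cell marker Runx1 were at 0 in all d6PGCLC libraries. Endothelial markers summed to 71.5 to 93.3 CPM against 27.6 to 47.6 CPM, with Egfl7 as the highest marker in d6PGCLCs and Emcn at 0 counts in every d6PGCLC library, and blood markers (5 of 8 measured) to at most 5.47 CPM in any library. PGC replicate 2 stood apart by 144 CPM of the heat shock gene Hspa1a, against 4.42 to 20.3 CPM in the other PGCs, and PGC replicate 4 by 99 counts of Y-linked genes, of which the other libraries had 0. In bulk RNA, fewer cells of a type and less RNA per cell cannot be told apart.

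Fzd1, Fzd2, Fzd3 and Fzd7 were lower in d6PGCLCs than in E12.5 PGCs, Fzd6 and Fzd9 were higher, and Fzd4, Fzd5, Fzd8 and Fzd10 did not pass the test. The test was the quasi-likelihood test of edgeR with Benjamini-Hochberg adjustment over all 21950 genes, called at an adjusted p of at most 0.05. Of all genes, 31.5% were called, 16.1% as higher and 15.4% as lower. As every Frizzled gene had a mean of at least 5 counts, the closer background was the 12368 genes that reach this mean, of which 52.4% were called, and 6 of 10 is near that share. Fzd2 and Fzd3 also reached an absolute log2 fold change of 2, as did 8.42% of these genes and 6.62% of all genes. The values of the groups were apart without overlap for the 6 called members, and for 50.1% of these 12368 genes. The median log2 fold change was −0.28 over the members and 0.01 over these genes.

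**Figure D1:**
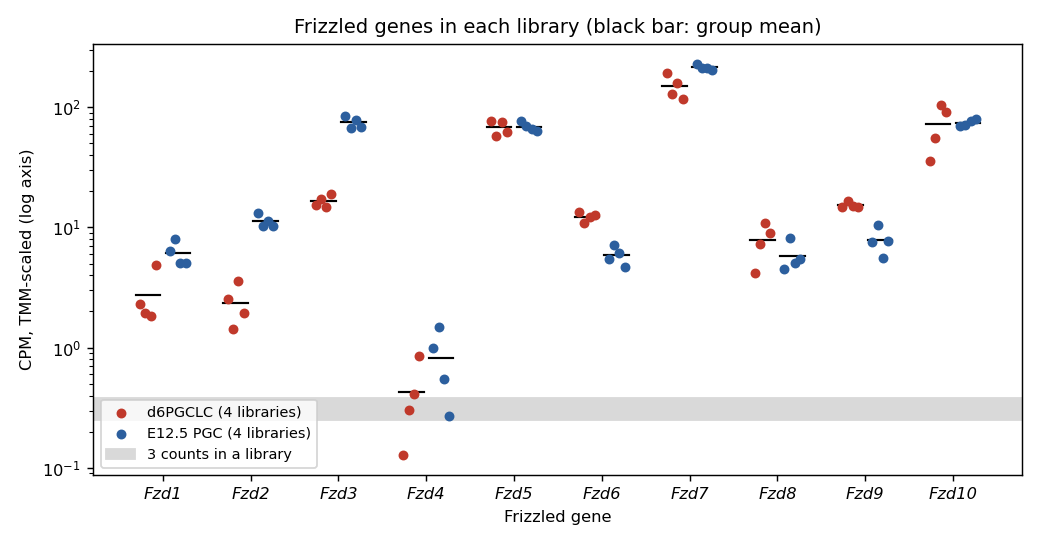
Each point is 1 library, placed by its CPM scaled with TMM (log axis), for the 10 Frizzled genes, with d6PGCLCs in red, E12.5 PGCs in blue, a black bar at the group mean and a grey band at 3 counts. The 2 groups are separate for Fzd1, Fzd2, Fzd3, Fzd6, Fzd7 and Fzd9, and the red points of Fzd10 spread from 35.5 to 105 CPM around blue points at 69.6 to 79.2 CPM.

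Fzd1, Fzd2 and Fzd7 form one subfamily of receptors, and all 3 fell in d6PGCLCs. Each is encoded by a single exon, as are Fzd8, Fzd9 and Fzd10. Fzd7 (Entrez 14369, chr1:59482147-59486955), the main Frizzled of pluripotent stem cells, had 193, 128, 158 and 116 CPM in the d6PGCLC libraries and 231, 211, 210 and 205 CPM in the PGC libraries. Every PGC library lay above every d6PGCLC library, and PGCs were the tighter group, with a coefficient of variation (CV) of 5.23% against 23.2%. The means were 149 ± 34.5 and 214 ± 11.2 CPM (SD, n = 4 each). Its log2 fold change was −0.53 (SE 0.12, edgeR adjusted p = 0.0016), the smallest of the 6 called.

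Fzd2 (Entrez 57265, chr11:102604431-102608058), a receptor for Wnt5a, had 2.55, 1.43, 3.57 and 1.94 CPM in d6PGCLCs and 13.2, 10.3, 11.2 and 10.2 CPM in PGCs. These stand for 14 to 43 counts and 98 to 122 counts, and the groups did not overlap. Fzd2 thus changed by −2.21 on the log2 scale (SE 0.25, edgeR adjusted p = 3.56e-07), and it lay between −2.52 and −2.03 when any 1 library was left out.

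Fzd1 (Entrez 14362, chr5:4753839-4758216), which can signal through β-catenin, had 2.30, 1.93, 1.83 and 4.85 CPM in d6PGCLCs and 6.36, 8.00, 5.07 and 5.05 CPM in PGCs. The fourth d6PGCLC library was close to the lowest PGC library, and the other 3 were well below. The fit gave a log2 fold change of −1.19 (SE 0.30, edgeR adjusted p = 0.0034), and −1.60 (adjusted p = 0.00012) without d6PGCLC replicate 4. That library also had the highest interstitial marker sum, 30.9 CPM, and the part of those cells in its Fzd1 level was not tested. The 9 supporting cell markers, all higher on average in PGCs, moved in the same direction as Fzd1, Fzd2, Fzd3 and Fzd7, and their part in these differences was not tested either. Without PGC replicates 2 and 4, which stood apart, Fzd1 remained lower (−1.08, edgeR adjusted p = 0.025).

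Fzd3 and Fzd6, the pair best known for planar cell polarity and the only members with 7 exons, moved in opposite directions. Fzd3 (Entrez 14365, chr14:65192441-65262463), needed for axon guidance, had 15.3, 17.3, 14.8 and 18.9 CPM in d6PGCLCs and 83.7, 67.7, 78.2 and 69.0 CPM in PGCs. The PGC libraries were all far above the d6PGCLC libraries, at 643 to 848 counts against 120 to 178. The log2 fold change was −2.17 (SE 0.12, edgeR adjusted p = 2.14e-11). It became −1.91 once a trend with exonic length was removed, so that Fzd3, which has the longest exonic length of the family (13022 bases), stayed called but no longer reached the fold threshold.

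Fzd6 (Entrez 14368, chr15:39006149-39038192), which orients hair follicles, had 13.4, 10.8, 12.2 and 12.6 CPM in d6PGCLCs and 5.49, 7.16, 6.09 and 4.69 CPM in PGCs. All d6PGCLC libraries lay above all PGC libraries. Fzd6 rose by 1.06 on the log2 scale (SE 0.19, edgeR adjusted p = 0.00011). Divided by exonic length, Fzd3 stood at 0.383, 0.537, 0.406 and 0.502 times the level of Fzd6 in the d6PGCLC libraries and at 5.11, 3.17, 4.30 and 4.92 times in the PGC libraries. Fzd6 was thus the higher of the pair in every d6PGCLC library and Fzd3 in every PGC library, which is given as a description without a test. Part of the exons of Fzd6 lies opposite to Gm26704, and of those of Fzd5 opposite to Gm38058, and the sources used here do not state whether reads were counted by strand.

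Fzd9 and Fzd10 belong to the subfamily that also holds Fzd4. Fzd9 (Entrez 14371, chr5:135248938-135251047) had 14.8, 16.6, 15.2 and 14.9 CPM in d6PGCLCs and 7.61, 10.4, 5.53 and 7.76 CPM in PGCs. The d6PGCLC libraries lay close together, with a CV of 5.39%, and all were above the PGC libraries, whose CV was 25.6%. The difference was 0.98 on the log2 scale (SE 0.19, edgeR adjusted p = 0.00027). The endothelial marker sum was likewise higher in every d6PGCLC library than in any PGC library. By mean, 5 of its 8 markers were higher in d6PGCLCs, with Egfl7 the highest (43.6 against 10.6 CPM). Kdr, Emcn and Tie1 were lower, but their means, at most 0.235 CPM in either group, lay under the limit of detection. The part of these markers in the higher Fzd6 and Fzd9 was not tested.

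Fzd10 (Entrez 93897, chr5:128601106-128604093) had 35.5, 55.8, 105 and 91.2 CPM in d6PGCLCs and 69.6, 70.8, 76.4 and 79.2 CPM in PGCs. The d6PGCLC libraries lay on both sides of the PGC libraries, with 2 below and 2 above all of them. The highest d6PGCLC library was 2.97 times the lowest, against 1.14 times among PGCs, and the CVs were 44.5% and 6.14%. The log2 fold change was −0.04 (95% interval −0.44 to 0.37, edgeR adjusted p = 1), which leaves room for a difference in either direction. It was 0.18 without d6PGCLC replicate 1 and −0.29 without d6PGCLC replicate 3. The neighbouring gene Fzd10os, counted apart, had 5 to 21 counts per library.

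Fzd4 (Entrez 14366, chr7:89404366-89410110), the receptor for Norrin in the vessels of the retina, was near the limit of detection, with 1, 3, 5 and 7 counts in d6PGCLCs and 8, 14, 6 and 3 counts in PGCs. The groups overlapped. The log2 fold change of −0.91 had a 95% interval from −2.13 to 0.31 (edgeR adjusted p = 0.32), so that a difference was not detectable at this depth. It was −1.40 without d6PGCLC replicate 4 and −0.45 without PGC replicate 2, and was not called in either case.

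Fzd5 and Fzd8 form the remaining subfamily, and neither passed the test. Fzd5 (Entrez 14367, chr1:64730558-64737750), needed for vessel growth in yolk sac and placenta, had 76.7, 57.3, 75.8 and 62.2 CPM in d6PGCLCs and 77.2, 69.3, 65.5 and 63.3 CPM in PGCs. The groups overlapped over most of their range, and the means were 68.0 ± 9.75 and 68.8 ± 6.14 CPM (SD, n = 4 each). The log2 fold change was −0.02 with a 95% interval from −0.24 to 0.21 (edgeR adjusted p = 1), the narrowest interval among the members that were not called.

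Fzd8 (Entrez 14370), a receptor of the developing forebrain, had 4.21, 7.33, 10.95 and 8.97 CPM in d6PGCLCs and 4.49, 8.21, 5.07 and 5.42 CPM in PGCs. The lowest value of all was a d6PGCLC library, and 2 d6PGCLC libraries lay above all PGCs. On the log2 scale the difference was 0.45 (95% interval −0.06 to 0.96, edgeR adjusted p = 0.23). Without d6PGCLC replicate 1 it was 0.65 and passed the test (edgeR adjusted p = 0.023), whereas it was 0.23 (adjusted p = 0.67) without d6PGCLC replicate 3 and 0.67 (adjusted p = 0.078) without PGC replicate 2.

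**Figure D2:**
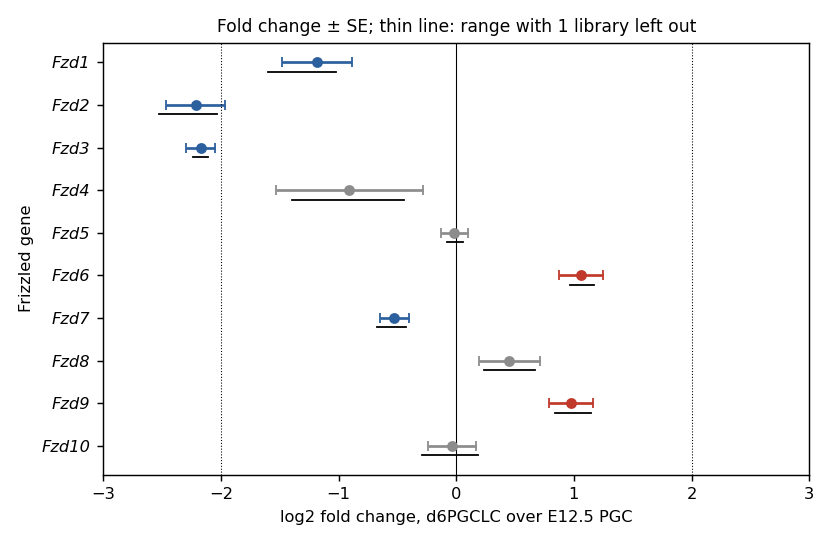
The points give the log2 fold change of each Frizzled gene, d6PGCLC over E12.5 PGC, with its SE, in blue for lower, red for higher and grey for members that did not pass the test, and the thin black lines give the range with any 1 library left out. Fzd2 and Fzd3 lie past the dotted line at −2, and the lines of Fzd5 and Fzd10 cross 0.

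For single genes, the CPM were also compared with an exact 2-sided permutation test over the 70 arrangements of the 8 libraries. The smallest p that it can give, 0.0286, was reached by Fzd1, Fzd2, Fzd3, Fzd6, Fzd7 and Fzd9. Any gene whose groups do not overlap reaches this p, so it restates the separation reported above and adds nothing to it. In the same exact permutation test p was 0.229 for Fzd4, 0.8 for Fzd5, 0.314 for Fzd8 and 0.714 for Fzd10, without adjustment for the 10 genes.

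To compare levels between genes, CPM were divided by the deposited exonic length in kilobases (RPKM). In d6PGCLCs the order was Fzd7 (30.7 ± 7.11 RPKM, SD, n = 4), Fzd10 (23.7 ± 10.6), Fzd5 (9.88 ± 1.42), Fzd9 (7.15 ± 0.386), Fzd6 (2.81 ± 0.251), Fzd8 (2.32 ± 0.842), Fzd3 (1.27 ± 0.146), Fzd2 (0.646 ± 0.251), Fzd1 (0.617 ± 0.323) and Fzd4 (0.113 ± 0.0815). Neighbours whose ranges overlapped there were Fzd7 with Fzd10, Fzd6 with Fzd8, Fzd8 with Fzd3, and Fzd2 with Fzd1. Fzd7 exceeded Fzd10 in d6PGCLC replicates 1 and 2, at ratios of 3.40 and 1.43, but not in replicates 3 and 4, at 0.939 and 0.797. In PGCs the order was Fzd7 (44.2 ± 2.31 RPKM, SD, n = 4), Fzd10 (24.4 ± 1.50), Fzd5 (9.99 ± 0.891), Fzd3 (5.73 ± 0.588), Fzd9 (3.64 ± 0.931), Fzd2 (3.07 ± 0.382), Fzd8 (1.71 ± 0.488), Fzd1 (1.39 ± 0.315), Fzd6 (1.34 ± 0.238) and Fzd4 (0.219 ± 0.140). The overlapping neighbours were Fzd9 with Fzd2, Fzd8 with Fzd1, and Fzd1 with Fzd6. Per length, Fzd7, Fzd10 and Fzd5 thus led in both cell types, whereas Fzd3 moved from rank 7 in d6PGCLCs to rank 4 in PGCs and Fzd6 from rank 5 to rank 9. This order depends on the division by length: in shares of the Frizzled counts in PGCs, the long Fzd3 transcript held 15.9%, beside 15.8% for Fzd10 and 14.6% for Fzd5. The deposited lengths of Fzd4 (3765 bases) and Fzd8 (3386 bases) are shorter than the GENCODE transcripts (6720 and 5974 bases), which bears on their places in these orders.

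The summed Frizzled level was 76.4, 67.7, 94.1 and 78.9 RPKM in the d6PGCLC libraries and 99.6, 96.2, 93.9 and 93.2 RPKM in the PGC libraries. The third d6PGCLC library fell within the PGC range, and the other 3 lay below it. Fzd5, Fzd7 and Fzd10 together made up 81.0 ± 2.17% of this sum in d6PGCLCs and 82.2 ± 1.46% in PGCs (SD, n = 4 each). Within them, Fzd7 held 52.2%, 38.9%, 34.7% and 30.4% of the sum in the d6PGCLC libraries and Fzd10 held 15.3%, 27.2%, 36.9% and 38.1%, while in PGCs Fzd7 stood at 46.1 ± 1.13% and Fzd10 at 25.6 ± 2.28%. Among the rest, Fzd9 made up 9.18 ± 1.63% in d6PGCLCs and 3.80 ± 0.954% in PGCs. Fzd6 held 3.58 ± 0.439% and 1.40 ± 0.245%. Fzd3 held 1.64 ± 0.338% in d6PGCLCs and 5.98 ± 0.521% in PGCs, and Fzd2 held 0.797 ± 0.212% and 3.20 ± 0.318%. The shares of a library add up to a fixed total and were not tested.

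**Figure D3:**
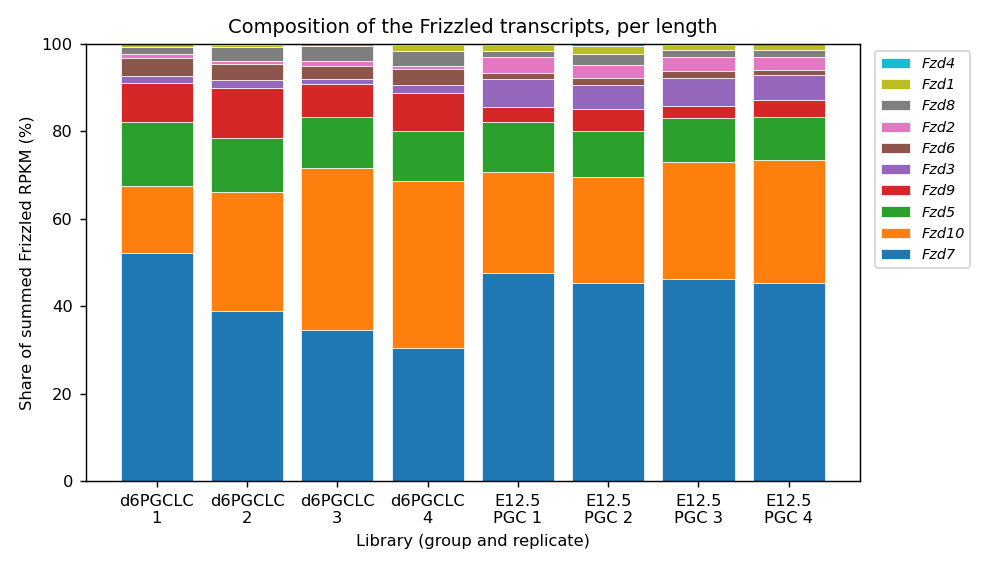
Each bar is 1 library, divided into the percentage that each Frizzled gene contributes to the summed Frizzled RPKM. Fzd7, Fzd10 and Fzd5 fill about the same part of all 8 bars, the border between Fzd7 and Fzd10 shifts among the d6PGCLC libraries, and Fzd3 and Fzd2 are wider in the PGC bars and Fzd9 and Fzd6 in the d6PGCLC bars.

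The genes that work with the Frizzled receptors were read from 6 lists with 56 genes. Of these, 14 rose in d6PGCLCs, 17 fell and 25 did not pass, and 9 reached the fold threshold. Their median log2 fold change was −0.14, or −0.05 with genes at the limit of detection set to their bound, against −0.03 over the 17010 genes with a count. Among the 44 that averaged 5 counts or more, 28 were called and 6 reached the fold threshold, beside 52.4% and 8.42% of all genes at that level. Over all genes, 16.1% were called higher and 15.4% lower, and 6.62% reached the fold threshold. The share of 52.4% is the closer background for cytoplasmic transducers (11 of 11 genes at that level) and planar cell polarity genes (10 of 10). The same holds for co-receptors (8 of 9) and nuclear mediators (7 of 8). In the remaining lists, 5 of 11 genes for receptor turnover and 3 of 7 on the list of Frizzled-like domains reached that level.

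Among 9 co-receptor genes, 4 rose and 5 did not pass (median log2 fold change 0.23). Lrp5 rose from 100.4 to 164 CPM (log2 fold change 0.71, edgeR adjusted p = 3.24e-06), whereas Lrp6 stood at 68.9 CPM in d6PGCLCs and 75.3 CPM in PGCs (adjusted p = 0.45). The Wnt5a receptor Ror2 rose by 0.89 (adjusted p = 3.58e-08) on the log2 scale. Ryk, which binds Wnts without a Frizzled, rose by 0.53 (adjusted p = 9.07e-05), and Reck, a partner of the Wnt7 signal, by 1.23 (adjusted p = 0.00013). The endothelial marker sum, higher in every d6PGCLC library, moved in the same direction as these genes, and its part in their rise was not tested.

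Of 11 genes for receptor turnover, 2 rose, 6 fell and 3 did not pass (median −0.91, or −0.77 with bounds). Only 5 of the 11 averaged 5 counts or more. Among those that fell, Lgr6 had 0, 1, 1 and 0 counts in d6PGCLCs against 4, 6, 5 and 7 in PGCs. Rspo1, which also fell, had 0, 1, 0 and 2 against 13, 4, 9 and 8. Znrf3 fell by 0.80 on the log2 scale (edgeR adjusted p = 8.22e-06), from 74.9 CPM in PGCs to 43.1 CPM in d6PGCLCs. Its relative Rnf43 was called higher (adjusted p = 0.0075) on 6, 3, 8 and 3 counts in d6PGCLCs against 0, 1, 0 and 1 in PGCs, at the limit of detection. Shisa2, whose family keeps Frizzled proteins from leaving the endoplasmic reticulum, fell by 2.79 (adjusted p = 1.24e-06), Shisa3 by 2.46 (adjusted p = 0.00093), and the R-spondin Rspo3 by 1.99 (adjusted p = 0.0014). Shisa3 and Rspo3 rest on few counts in d6PGCLCs, 4, 0, 2 and 8 for Shisa3 and 2, 3, 12 and 5 for Rspo3, so that their folds are imprecise, and without d6PGCLC replicate 4 the log2 fold change of Shisa3 was −3.31 (adjusted p = 0.00011). Lgr4, an R-spondin receptor, rose by 0.29 (adjusted p = 0.021), a call that was lost without d6PGCLC replicate 3 (0.24, adjusted p = 0.081), d6PGCLC replicate 4 (0.24, adjusted p = 0.084) or PGC replicate 3 (0.28, adjusted p = 0.075).

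A list of 7 genes held Ndp, whose product Norrin binds Fzd4 but lacks a Frizzled-like domain, and genes for other proteins with that domain. Of the 7, 2 fell and 5 did not pass (median −0.69, or 0 with bounds). Only 3 averaged 5 counts or more, and Sfrp4, Sfrp5, Frzb and Ndp had at most 5 counts in any library. The secreted Wnt binders Sfrp1 and Sfrp2 fell by 2.18 (edgeR adjusted p = 1.66e-08) and 2.34 (adjusted p = 7.17e-06) on the log2 scale. The supporting cell markers, lower in sum in every d6PGCLC library, moved in the same direction as Sfrp1, Sfrp2, Rspo3, Shisa2 and Shisa3, and their part in these differences was not tested. Smo, the Hedgehog transducer, had 52, 54, 25 and 19 counts in d6PGCLCs and 49, 18, 47 and 22 in PGCs (adjusted p = 0.89).

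Inside the cell, 3 of 11 cytoplasmic transducers rose, 2 fell and 6 did not pass (median −0.09). Of the 3 genes for Dishevelled, the protein that the tail motif holds, Dvl1 changed by −0.46 (edgeR adjusted p = 0.00083) and Dvl2 by 0.31 (adjusted p = 0.0064), while Dvl3 stood at 66.2 CPM in d6PGCLCs and 70.3 CPM in PGCs (adjusted p = 0.77). The scaffold gene Axin1 changed by −0.39 (adjusted p = 0.0029), and the kinase gene Csnk1a1 by 0.40 (adjusted p = 0.0078). Amer1 rose by 0.70 (adjusted p = 0.012), but by 0.49 (adjusted p = 0.091) without d6PGCLC replicate 3 and by 0.61 (adjusted p = 0.051) without PGC replicate 4. Ctnnb1, the gene of β-catenin, stood at 1240 CPM in d6PGCLCs and 1319 CPM in PGCs (adjusted p = 0.54). Of 8 nuclear mediators, 4 fell and 4 did not pass (median −0.32): Tcf7l1, mostly a repressor of Wnt targets, changed by −2.23 (adjusted p = 1.87e-10), Pygo1 by −1.37 (adjusted p = 7.07e-05) and Tcf7, whose groups overlapped, by −0.82 (adjusted p = 0.00012).

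Of 10 genes for planar cell polarity, the branch in which Fzd3 and Fzd6 act, 5 rose, 3 fell and 2 did not pass (median 0.08). Celsr3 rose by 2.22 (edgeR adjusted p = 1.06e-06), Ankrd6 by 1.67 (adjusted p = 1.31e-11) and Vangl1 by 1.47 (adjusted p = 6.18e-09), whereas Celsr1 changed by −1.06 (adjusted p = 0.0021), Prickle1 by −0.86 (adjusted p = 3.68e-07) and Celsr2 by −0.75 (adjusted p = 7.66e-05). Both directions thus occurred within the Celsr family, as they did for Fzd3 and Fzd6.

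**Figure D4:**
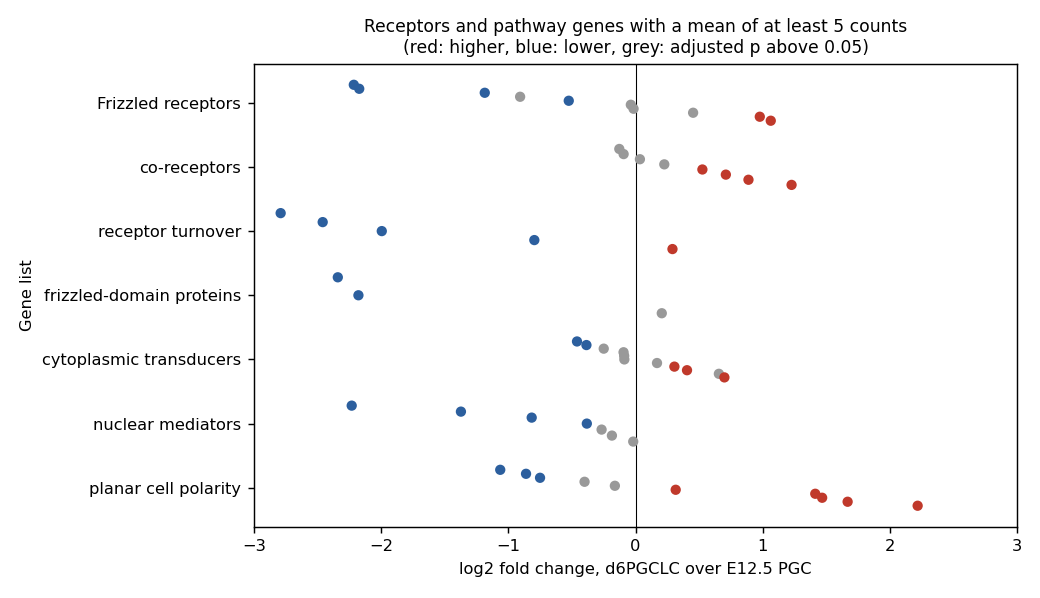
Each point is the log2 fold change, d6PGCLC over E12.5 PGC, of a gene averaging 5 counts or more, for the Frizzled genes and the 6 pathway lists, in red for higher, blue for lower and grey for an adjusted p above 0.05. The called co-receptor genes lie to the right of 0, the called nuclear mediators to the left, and Frizzled and planar cell polarity genes on both sides.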

How the data were processed

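RNA of 4 d6PGCLC and 4 E12.5 PGC pools was sequenced with a stranded kit as single reads of 100 bases. The deposited values are raw counts per gene, for which the authors used uniquely mapped reads on the exons of 1 isoform chosen at random per gene, with its exonic length, after alignment with STAR to GRCm38 (mm10). Whether counting used strand is not given in the sources used here. Entrez identifiers were matched to RefSeq GRCm38.p6, which named 21907 of 21950.

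Counts were scaled with TMM and fitted with edgeR 4.0.16 in R 4.3.3 (glmQLFit, glmQLFTest). The prior count was 0.125, cell type was the sole covariate and there was no filter on low counts. The code was tested on simulated data. P-values were adjusted with the Benjamini-Hochberg method over all genes. Libraries of a group differed by more than counting error (chi-square over its degrees of freedom, 3.19 to 20.8). Alternatives were the edgeR likelihood ratio test, DESeq2 1.42.0, other scalings, low-count filters, a prior count of 2, a replicate block, a length offset and leaving out libraries. Leaving out PGC replicates 2 and 4 together was added after seeing the data. Limits at 3 counts cover counting error only.

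All 10 Frizzled genes are named, as are Lrp5, Lrp6, Ryk, Znrf3, Rnf43, Lgr4, Smo and Ctnnb1 and, per pathway list, up to 3 called genes in each direction with a mean of at least 10 counts. Dvl3, Ndp, Sfrp4, Sfrp5, Frzb, Lgr6, Rspo1 and the single marker genes were named after their values were seen. Members and lists were chosen with earlier results of these data known.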

Additional observations from a re-analysis of the deposited data

Results flagged for a closer look

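The Fzd1 level of d6PGCLC replicate 4, 4.85 CPM, stood apart from the other 3 d6PGCLC libraries, at 1.83 to 2.30 CPM. Its gap to the nearest library was 0.844 of the range of the group, just over the 95% critical value of Dixon's test for 4 samples. It was the only such value in 20 sets of 4 libraries examined, and chance alone gives about 1 in 20. The same library had the highest sum of interstitial markers, 30.9 CPM, and their part in the value was not tested.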

How the results depend on the processing

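The directions and calls of Fzd1, Fzd2, Fzd3, Fzd6, Fzd7 and Fzd9 were the same under all 19 alternatives run for each. The length offset left 1 Frizzled gene past the fold threshold in place of 2. Fzd5, which was not called, had a log2 fold change of 0.063 under the length offset and −0.077 to 0.054 with any 1 library left out, and Fzd10 had −0.29 to 0.18. Fzd8 alone gained a call, without d6PGCLC replicate 1 (0.65). Fzd4 was removed by both low-count filters. As shares of counts rather than of RPKM, 9 of 20 Frizzled shares moved by more than 1 SD, among them Fzd3 in d6PGCLCs (4.88% in place of 1.64%) and in PGCs (15.9% in place of 5.98%), and Fzd9 in d6PGCLCs (4.51% in place of 9.18%) and in PGCs (1.67% in place of 3.80%). The deviations of same-numbered libraries of the 2 groups correlated at 0.27, 0.10, −0.02 and 0.04, not every library correlated best with its own number, and the numbers were not taken as pairs. With a replicate block 6 Frizzled genes were called and 7270 of all genes in place of 6919. Low counts limit what can be said of Fzd4, Rnf43, Shisa3, Rspo3, Lgr6 and Rspo1, and a single iPSC line limits the d6PGCLC group. The pools are independent experiments, but the reads carry no molecular identifiers.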
